A study of Danio rerio with 24 samples.

Results

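In GFP-sorted cells of the zebrafish lateral line line Tg(sqET20), 37 of 31087 measured genes were strongly enriched in GFP+ cells of untreated larvae and kept their mean GFP+ level near the untreated one at 1, 3 and 5 h after neomycin. The rule took a gene with a mean of at least 20 FPKM in GFP+ cells of mock larvae and a GFP+ to GFP- ratio of at least 16 (means plus 1). It then asked for a GFP+ neomycin to GFP+ mock ratio between 0.67 and 1.5 at each time (means plus 1), and left out 17 gene IDs by name. FPKM is the number of fragments scaled to transcript length and to the fragments mapped in a library. The mock GFP+ and GFP- levels and the GFP+ levels after neomycin are the values the genes were chosen by, and they are described with no test. Nearness to the mock level was asked of means of 3 libraries, and single libraries met it less often.

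Neuromasts are the sense organs of the lateral line on the skin of fish. Each holds mechanosensory hair cells surrounded by supporting cells, and the aminoglycoside antibiotic neomycin kills the hair cells, which supporting cells then replace. In the enhancer trap line Tg(sqET20) GFP lights up lateral line cells, among them supporting cells at the rim of the neuromast; GFP follows the trapped enhancer and is not a marker of 1 cell type.

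All larvae carried Tg(sqET20), were 5 days post fertilization, and were pooled, 200 to a preparation. From each preparation about 30000 GFP+ or GFP- living cells were sorted for polyadenylated RNA sequencing. The groups were GFP+ cells after a 30 min exposure to 300 uM neomycin and 1, 3 or 5 h of recovery, GFP- cells of the same 3 times, GFP+ cells of mock larvae (no drug, 1 h) and GFP- cells of mock larvae (no drug, 1 h), with 3 libraries each and 24 in all. The labels date the mock and 1 h libraries to Mar2012 and those of 3 h and 5 h to Apr2012, and mock libraries exist for 1 h alone, so at 3 and 5 h treatment, date and later sampling cannot be told apart.

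The deposited FPKM summed to between 1147540 and 1601860 per library, and 16621 to 17806 genes reached 1 FPKM in GFP+ libraries, against 19024 to 19598 in GFP- libraries. Total counts are unknown; the relative depth of the libraries ran from 0.727 to 1.27. Markers of lateral line and supporting cells summed to 10099 to 11460 FPKM per library in GFP+ cells and 728 to 852 FPKM in GFP- cells of mock larvae. Hair cell markers summed to 4156 to 5684 FPKM in GFP+ cells and 238 to 452 FPKM in GFP- cells. Epidermal markers summed to 20113 to 38009 FPKM in GFP+ cells and 2047 to 3668 FPKM in GFP- cells, and 47 of their 48 IDs reached a mean of 1 FPKM in GFP+ cells of mock larvae. Fibroblast and cartilage markers summed to 4526 to 8869 FPKM in GFP+ cells and 470 to 779 FPKM in GFP- cells. The lateral line list is not uniform. Of its 24 IDs with at least 20 FPKM in GFP+ mock cells, 11 had a GFP+ to GFP- ratio of at least 16. Among these, krt15 alone had a mean of 4019 FPKM. Other IDs of the list were lower in GFP+ cells, among them SLC1A3 (ratio 0.066), PROX1 (0.144) and LEF1 (0.354). In sorted bulk samples, fewer cells of a type and less RNA per cell cannot be told apart.

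The GFP+ libraries numbered 1 of the mock and 1 h groups stood apart from their partners. Relative to their group means, 44 epidermal IDs outside the 37 genes lay on average 0.35 (mock) and 0.38 (1 h) log2 units higher in these libraries, and 33 lateral line IDs deviated by -0.22 and -0.26. Epidermis was not the list that deviated most. The 13 gut, liver, pancreas and kidney IDs lay 0.74 (mock) and 0.51 (1 h) higher, and also 0.52 higher in the first library at 3 h. The 4 mucous cell IDs deviated by 0.32 and 0.98, the 19 ionocyte IDs by 0.038 and 0.67, the 13 blood IDs by -0.016 and 0.65, and the 17 fibroblast and cartilage IDs by -0.38 and -0.21. At 3 h and 5 h the epidermal deviations stayed between -0.059 and 0.077. Without the 4 GFP+ libraries numbered 1 the same rule takes 22 genes, 18 of them among the 37; without the mock and 1 h libraries numbered 1 it takes 23, again with 18 shared.

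The level and ratio thresholds alone took 146 genes. Of these, 40 stayed inside the window at all 3 times, and 3 of the 40 (fndc7b, sox21a and ANXA1) belong to the IDs left out. The other 106 left the window at 1 or more times: 79 only below it, 14 only above it and 13 on both sides at different times. Taken singly, 75, 74 and 81 of the 146 were inside at 1, 3 and 5 h. Among all 3861 genes with a mean of at least 20 FPKM in GFP+ cells of mock larvae, 2058 (53.3%) were inside at all 3 times, against 40 of 146 (27.4%) of the GFP+ enriched genes. The GFP+ mock mean that chose these genes is also the divisor of the window ratios, so a gene that was high in mock libraries alone passes the level and falls below the window. The counts on each side and both shares are given as a description for that reason. Some of the 106 carry names of short RNA genes, among them MIR184, mir301b, snord29 and 5S_rRNA. The ratio of mir301b was 0.024 at each time, and those of snord29 were 0.753, 0.00973 and 2.34. The share of 27.4% includes such genes and was not counted without them.

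**Figure D1:**
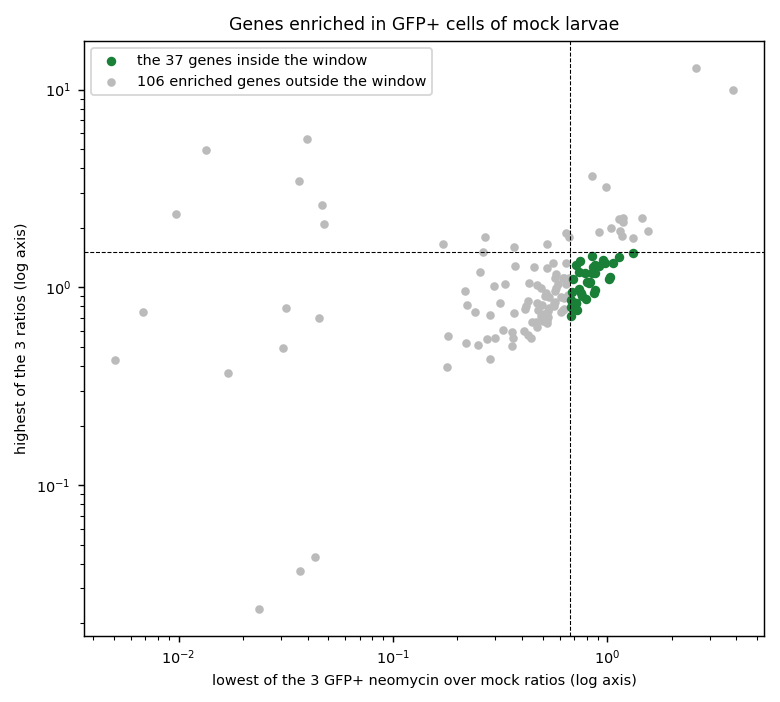
Each point is 1 gene enriched in GFP+ cells of mock larvae, placed by the lowest (x) and the highest (y) of its 3 GFP+ neomycin to mock ratios of means plus 1, on log axes; dashed lines mark 0.67 and 1.5. The 37 genes (green) fill the corner that the rule cuts out, and the 106 genes outside (grey) lie left of it, above it or both.

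Several genes sat close to a threshold. The lowest GFP+ mock means among the 37 were 25.2 FPKM for ENSDARG00000030749 and 27.1 FPKM for PKHD1L1. At the GFP+ to GFP- ratio of 16, cldni (16.05) and aep1 (16.4) were just inside, and MCF2L (15.995) and ENSDARG00000095506 (14.7) just outside. At the lower window limit, and2 (0.675) and si:ch73-105b23.1 (0.676) were inside and tmprss9 (0.661) and col1a1a (0.657) outside. At the upper limit, PKHD1L1 (1.49) and cldni (1.43) were inside and ENSDARG00000052517 (1.78) and si:dkey-22i16.7 (1.83) outside.

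Of the 37 genes, 17 have a gene symbol, 8 have a clone-like name and 12 have no symbol in the table of gene names. GFP+ mock means ran from 25.2 to 8187 FPKM with a median of 211, and GFP- mock means from 0.0739 to 171 FPKM with a median of 2.65. The GFP+ to GFP- ratio in mock ran from 16.05 to 378 with a median of 26.2. In neomycin larvae the GFP- mean stood at a median of 2.24% (1 h), 3.09% (3 h) and 2.85% (5 h) of the GFP+ mean, against 2.57% in mock larvae. In every one of the 4 conditions the lowest GFP+ library was above the highest GFP- library for 37 of 37 genes. The same held for 22.3%, 23.2%, 26.3% and 26.5% of the 21860 expressed genes in mock and at 1, 3 and 5 h. The rule set the mock ratio and the GFP+ levels after neomycin, so this separation is given as a description. The ratio stayed at 16 or more in 33, 32 and 33 of the 37 at 1, 3 and 5 h, beside 67.1%, 63.7% and 72.6% of the 146 enriched genes, and 28 of the 37 held it at all 3 times.

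**Figure D2:**
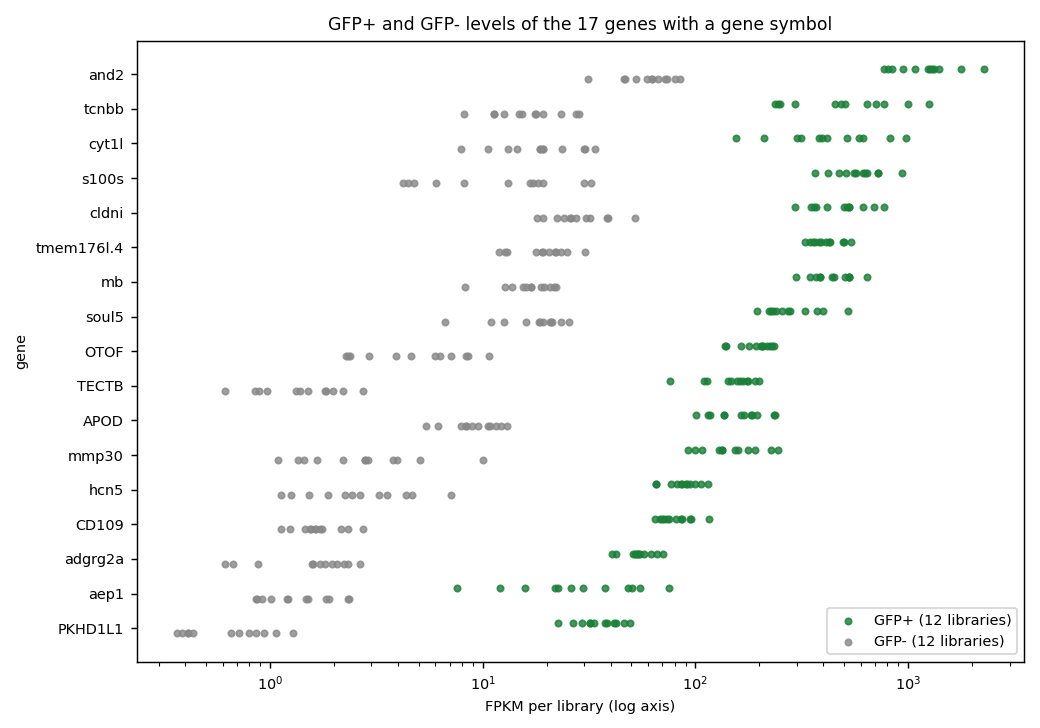
FPKM (log axis) of the 17 genes with a gene symbol in each of the 12 GFP+ libraries (green) and the 12 GFP- libraries (grey). For each gene all GFP+ points lie to the right of all GFP- points, also for and2 and cldni, whose GFP- levels were highest.

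The first set of genes is known from hair cells and from the extracellular coats of sensory epithelia. OTOF (ENSDARG00000020581) encodes otoferlin, the calcium sensor for vesicle release at the hair cell ribbon synapse. It had 206, 193 and 235 FPKM in mock GFP+ cells, 164, 207 and 225 at 1 h, 140, 230 and 178 at 3 h and 203, 217 and 139 at 5 h. The groups overlapped, and the means were 211 ± 21.49, 199 ± 31.2, 183 ± 45.5 and 186 ± 41.8 FPKM (SD, n = 3 each). The GFP+ ratios to mock were 0.940, 0.866 and 0.882. A second ID with the symbol OTOF, ENSDARG00000030832, was not enriched, with a GFP+ to GFP- ratio of 1.51 in mock. Its GFP+ means fell from 6.54 FPKM in mock to 4.21, 3.01 and 2.54 FPKM at 1, 3 and 5 h.

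The gene s100s (ENSDARG00000036773) encodes an S100-type calcium-binding protein of hair cells. It had 557, 510 and 630 FPKM in mock GFP+ cells, 567, 640 and 938 at 1 h, 366, 611 and 473 at 3 h and 721, 719 and 422 at 5 h. Its means were 566 ± 60.9, 715 ± 197, 483 ± 123 and 621 ± 172 FPKM (SD, n = 3 each), so the scatter after neomycin was wider than the differences between the means and mock. In OTOF and s100s alike the second library was the highest at 3 h and the third the lowest at 5 h. The 19 other hair cell IDs with at least 1 FPKM deviated in the same libraries, by 0.27 log2 units in the second library at 3 h and -0.19 in the third at 5 h; their part in the result was not tested.

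Other abundant hair cell genes left the window. The paralog s100t (ENSDARG00000055589), one of the IDs left out by name, had 1749, 1135 and 1300 FPKM in mock GFP+ cells, 1054, 1087 and 965 at 1 h, 391, 618 and 522 at 3 h and 499, 595 and 538 at 5 h. Every s100t library at 1, 3 and 5 h was below every mock library, with ratios of 0.743, 0.366 and 0.390. The parvalbumin genes pvalb8 (0.519, 0.288 and 0.390) and pvalb9 (0.905, 0.513 and 0.639), which encode calcium buffers, also went below 0.67 at 3 h. ATOH1, the transcription factor that specifies hair cells, went above the window, at 1.71 (3 h) and 1.74 (5 h). Of the 11 hair cell IDs with at least 20 FPKM in GFP+ mock cells, 7 stayed inside at all times: OTOF, s100s, TMC2, GFI1, SLC17A8 and both MYO6 IDs. Only OTOF and s100s of these 7 also passed the ratio of 16, and TMC2 (11.5) and SLC17A8 (10.1) came next. The share of 63.6% compares with 53.3% of all genes of that level. The summed hair cell markers stood at 4156 to 5684 FPKM in mock GFP+ libraries, 3646 to 4146 by 1 h, 1827 to 2938 by 3 h, and from 2397 up to 3262 at 5 h. Much of these sums came from s100t, pvalb8 and pvalb9. Their GFP+ means were 1394, 1360 and 1066 FPKM in mock and 510, 391 and 546 FPKM at 3 h.

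TECTB (ENSDARG00000045268) encodes beta-tectorin, a protein of the extracellular matrix above inner ear hair cells. It had 147, 178 and 190 FPKM in mock GFP+ cells, 76.1, 174 and 199 at 1 h, 113, 167 and 110 at 3 h and 157, 163 and 142 at 5 h. The first 1 h library was below all others, and the groups overlapped. PKHD1L1 (ENSDARG00000091116) encodes a fibrocystin-like membrane protein, known in mice from the coat of stereocilia. Its levels were 22.6, 26.7 and 31.97 FPKM in mock, 29.2, 41.4 and 37.6 at 1 h, 31.99, 38.3 and 49.4 at 3 h and 42.6, 46.3 and 33.4 at 5 h. Of the 9 neomycin libraries, 8 were above the highest mock library, and its ratios of 1.32, 1.46 and 1.49 approached the upper limit of the window. The channel gene hcn5 (ENSDARG00000077382), of the hyperpolarization-activated cation channel family, had 99.1, 91.0 and 94.4 FPKM in mock, 76.9, 106 and 115 at 1 h, 65.5, 90.3 and 86.8 at 3 h and 85.5, 82.4 and 65.3 at 5 h. Its mock libraries were the closest together of all 37 genes, with a standard deviation of 4.29% of the mean, and 7 of 9 neomycin libraries were below the lowest of them.

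The second set holds 3 genes of the epidermis list. The type I keratin gene cyt1l (ENSDARG00000036832) had 824, 514 and 417 FPKM in mock GFP+ cells, 982, 210 and 156 at 1 h, 313, 395 and 615 at 3 h and 590, 299 and 381 at 5 h. Its ratios were 0.768, 0.754 and 0.725, yet only 3 of 9 neomycin libraries were inside the window, and the first 1 h library was 6.31 times the third. The gene aep1 (ENSDARG00000039099) had 54.8, 50.4 and 15.9 FPKM in mock, 75.2, 7.55 and 12.1 at 1 h, 22.6, 29.8 and 48.1 at 3 h and 37.5, 21.9 and 26.0 at 5 h. Its 1 h mean of 31.6 ± 37.8 FPKM (SD, n = 3) is not the level of any 1 h library. The claudin gene cldni (ENSDARG00000054616), for a tight junction protein of the skin, was less scattered, with 529, 361 and 499 FPKM in mock, 530, 694 and 768 at 1 h, 612, 417 and 350 at 3 h and 295, 370 and 517 at 5 h. All 3 of its 1 h libraries were above all 3 mock libraries.

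Of the 40 epidermis IDs with at least 20 FPKM in GFP+ mock cells, 11 (27.5%) stayed inside the window at all times, 15 went below it and 16 above it at some time, with 2 counted on both sides. For lateral line and supporting cell markers 7 of 24 (29.2%) stayed inside, 15 went below and 2 above. None of these 24 lateral line markers is among the 37 genes, although 11 of them passed the ratio of 16. All 11 are among the IDs that the rule left out by name. Of the 11, only sox21a stayed inside the window at all 3 times. The rest left the window and would not have met the rule, among them krt15 (0.554, 0.300 and 0.467). The summed lateral line markers were 10099 to 11460 FPKM in mock GFP+ libraries, 6026 to 8560 by 1 h, 4710 to 5370 by 3 h, and from 5602 up to 7359 at 5 h. Within these sums krt15 had means of 4019 FPKM in mock and 2228, 1203 and 1876 FPKM at 1, 3 and 5 h.

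**Figure D3:**
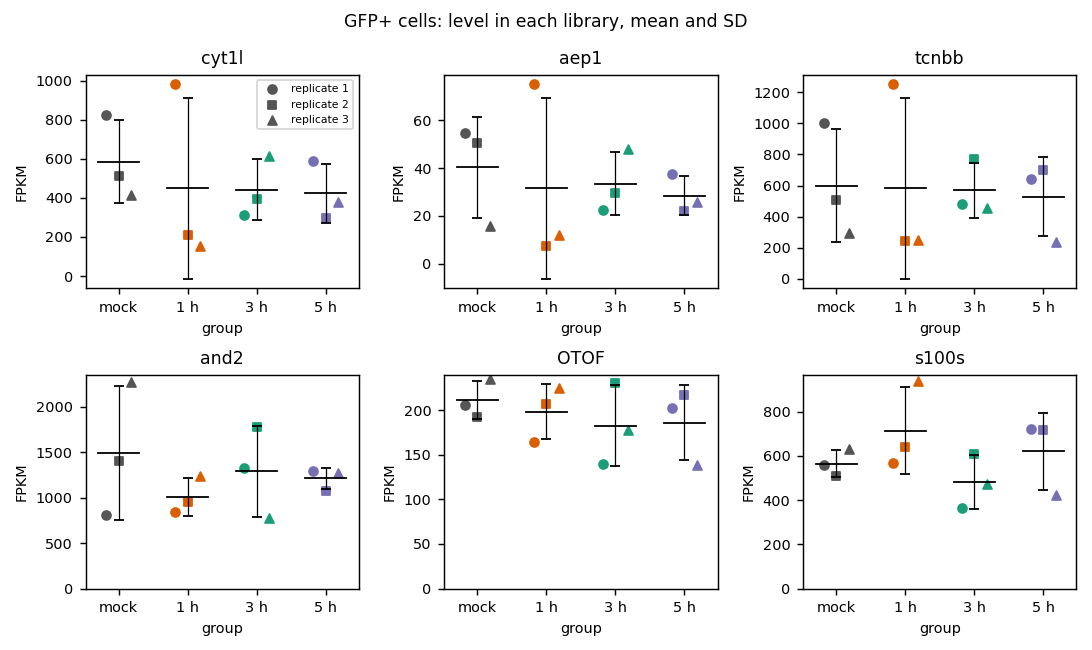
FPKM of 6 genes in the GFP+ libraries of mock larvae and at 1, 3 and 5 h after neomycin; symbols mark replicates 1 to 3, horizontal lines the mean and whiskers the SD of 3 libraries. In cyt1l, aep1 and tcnbb replicate 1 is the highest in mock and at 1 h, and in and2 it is the lowest in both. In OTOF and s100s the mock libraries lie closer together than in these genes, which does not hold in every group after neomycin.

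The third set encodes extracellular and matrix proteins. The gene and2 (ENSDARG00000079302) encodes an actinodin, a structural protein of the actinotrichia, the unmineralized fibrils of the fish fin fold. It had 808, 1402 and 2276 FPKM in mock GFP+ cells, 838, 948 and 1242 at 1 h, 1330, 1773 and 772 at 3 h and 1292, 1079 and 1270 at 5 h. The mock libraries spanned 2.82 times, and the 3 neomycin groups lay within or just below that span. The actinodin genes and1 and and3, with GFP+ mock means of 1181 and 1088 FPKM, were also enriched but went below the window. Their ratios were 0.609, 0.726 and 0.748 for and1 and 0.409, 0.440 and 0.601 for and3.

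The most abundant of the 37 genes, ENSDARG00000090729, and ENSDARG00000039462 have no symbol and followed and2 library by library. ENSDARG00000090729 had 3173, 8279 and 13110 FPKM in mock GFP+ cells, 4319, 5911 and 7869 at 1 h, 8682, 11380 and 4009 at 3 h and 7854, 5510 and 6652 at 5 h. Over the 12 GFP+ libraries its level was 8.09 to 11.1 times that of ENSDARG00000039462, and the level of and2 was 1.495 to 2.06 times that of ENSDARG00000039462. These ratios moved much less than the levels themselves. Fibroblast and cartilage markers (17 IDs) had the same order in mock, -0.38, 0.16 and 0.22 log2 units from the group mean. Their order also matched and2 at 1 and 3 h, but was the reverse at 5 h (-0.12, 0.16 and -0.035). Other lists shared the mock order, among them lateral line (-0.22, 0.10 and 0.12) and basement membrane IDs (-0.18, -0.032 and 0.22). Fibroblast and cartilage sums were 4526 to 8869 FPKM in mock, 3610 to 6078 by 1 h, 5072 to 7876 by 3 h, and from 5315 up to 7418 by 5 h in GFP+ libraries. In GFP- libraries of mock larvae they were 470 to 779 FPKM. All 17 IDs reached 1 FPKM in each GFP+ group, and their part in the result was not tested.

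The matrix metalloproteinase gene mmp30 (ENSDARG00000045887) had 191, 130 and 154 FPKM in mock GFP+ cells, 91.9, 226 and 245 at 1 h, 134, 159 and 108 at 3 h and 100.1, 133 and 176 at 5 h. CD109 (ENSDARG00000060609) encodes a membrane-anchored protein of the alpha-2-macroglobulin family. It had 69.3, 81.1 and 73.4 FPKM in mock, 116, 86.8 and 85.4 at 1 h, 64.9, 67.9 and 71.4 at 3 h and 75.1, 94.1 and 95.7 at 5 h. All 3 of its 1 h libraries were above the mock libraries, and the 3 h libraries overlapped them.

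The fourth set holds binding and carrier proteins. The gene tcnbb (ENSDARG00000091996) encodes a transcobalamin, which binds vitamin B12. It had 998, 504 and 295 FPKM in mock GFP+ cells, 1250, 245 and 251 at 1 h, 482, 770 and 454 at 3 h and 641, 703 and 236 at 5 h. Its 4 means lay between 527 and 599 FPKM while single libraries lay between 236 and 1250. Myoglobin, the oxygen-binding protein encoded by mb (ENSDARG00000031952), had 296, 387 and 527 FPKM in mock, 437, 345 and 505 at 1 h, 371, 529 and 384 at 3 h and 526, 640 and 449 at 5 h. In mock larvae muscle markers summed to 55.9 to 64.4 FPKM per GFP+ library and 59.9 to 85.0 FPKM per GFP- library. Over the GFP+ libraries 11 of the 18 muscle IDs averaged under 1 FPKM, among them MYOG, MYOD1, myhz2 and DES (ENSDARG00000005221). Much of the GFP+ sum came from ckma, TNNT3 (ENSDARG00000068457) and TNNI2 (ENSDARG00000035958), with GFP+ mock means of 16.2, 15.6 and 12.9 FPKM. The part of muscle cells in the mb levels was not tested. The GFP+ to GFP- ratio of mb was 21.4.

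A member of the SOUL heme-binding family, soul5 (ENSDARG00000075015), had 227, 231 and 274 FPKM in mock GFP+ cells, 329, 257 and 241 at 1 h, 398, 278 and 372 at 3 h and 524, 195 and 221 at 5 h. At 3 h all 3 libraries were above the mock libraries, with a ratio of 1.43. APOD (ENSDARG00000057437) encodes apolipoprotein D, a lipocalin that carries small hydrophobic molecules. It had 195, 183 and 114 FPKM in mock, 168, 117 and 100.4 at 1 h, 137, 136 and 237 at 3 h and 184, 165 and 234 at 5 h, with overlapping groups.

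The fifth set holds membrane proteins. The gene tmem176l.4 (ENSDARG00000074390), of the TMEM176 family, had 496, 388 and 356 FPKM in mock GFP+ cells, 498, 541 and 430 at 1 h, 329, 412 and 346 at 3 h and 365, 426 and 382 at 5 h. The adhesion G protein-coupled receptor gene adgrg2a (ENSDARG00000088137), the only G protein-coupled receptor gene among those with a symbol, had 40.7, 57.3 and 52.0 FPKM in mock, 52.6, 53.9 and 55.1 at 1 h, 50.6, 42.4 and 53.5 at 3 h and 70.7, 66.2 and 62.1 at 5 h. At 5 h all 3 of its libraries were above the mock libraries, with a ratio of 1.32.

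None of the 17 genes with a symbol is on the lists of epithelial transcription factors, of basement membrane adhesion or of receptors and ligands of the Fgf, Wnt, Notch, Egf, Eph and semaphorin pathways. In these lists 15 of 24, 9 of 18 and 10 of 19 IDs with at least 20 FPKM in GFP+ mock cells were inside the window at all times, but 0, 0 and 1 passed the ratio of 16. Lists were matched by gene symbol, so the 12 genes without a symbol could not be placed on any list, and the 8 with a clone-like name matched none. Among the 17 genes with a symbol, cldni was the single gene of the junction list. The gene cyt1l was the single one of the keratin list and mmp30 the single one of the secreted protease list. No gene matched the ionocyte, mucous cell, vessel, fibroblast, blood, muscle, neuron, pigment cell or gut lists. Of their IDs with at least 20 FPKM in GFP+ mock cells, few passed the ratio of 16: 2 for ionocytes, 1 for fibroblasts and 0 for each other list.

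The largest GFP+ to GFP- ratios belonged to genes with a clone-like name or no symbol. In mock larvae si:dkey-103g5.3 (378), zgc:162608 (295) and ENSDARG00000057408 (230) had the largest. The gene si:dkey-103g5.3 had 1132, 1334 and 1252 FPKM in mock GFP+ cells, 719, 1860 and 1362 at 1 h, 1050, 1029 and 940 at 3 h and 1110, 1427 and 1265 at 5 h. Its level was 0.919 to 1.38 times that of zgc:162608 in the 12 GFP+ libraries, and all 3 of its 3 h libraries were below the mock libraries.

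A pair without symbols was closer still. ENSDARG00000087524 had 228, 295 and 301 FPKM in mock GFP+ cells, 162, 277 and 201 at 1 h, 196, 207 and 184 at 3 h and 199, 253 and 237 at 5 h, which was 0.996 to 1.11 times the level of ENSDARG00000091008 in every GFP+ library. Their levels are uncertain if fragments of near-identical copies were divided between them, and how such fragments were assigned is not given in the sources used here. The same holds for si:ch73-105b23.6 and si:ch73-105b23.1, which carry the same clone name and kept a ratio of 1.85 to 2.27. Of the 37 genes, 23 were found in the RefSeq gene table (assembly GRCz12tu, used here only for gene order), on 15 chromosomes. The nearest of these 23 to each other, cyt1l and s100s, were 62 protein-coding genes apart. Neither si:ch73-105b23.1 nor the genes without a symbol were among the 23, so closer neighbours may have been missed.

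Across the 37 genes the GFP+ ratios to mock had medians of 0.876, 0.901 and 0.936 at 1, 3 and 5 h, and 21, 28 and 20 genes were under 1. The ratio was under 1 at all 3 times in 15 genes, and 1 or more at all 3 times in 5 (mb, si:dkey-7c18.24, soul5, ENSDARG00000041504 and PKHD1L1). At 3 h the library medians of the log2 difference to mock in GFP+ cells were 0.11, 0.12 and 0.087 over all expressed genes. For the 37 genes they were -0.21, -0.029 and -0.13. At 1 h both were below 0, at -0.068, -0.11 and -0.030 for all expressed genes and -0.10, -0.049 and -0.091 for the 37. The rule used these ratios of the 37 genes and their divisor, the GFP+ mock mean. The counts and medians are therefore a description with no test, and genes under 1 were not counted over all genes.

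Single libraries left the window more often than the means did. Of 333 GFP+ neomycin library values, 244 were inside 0.67 to 1.5 of the mock mean. All 9 libraries were inside in 4 genes (tmem176l.4, hcn5, adgrg2a and ENSDARG00000041504), and fewer than 7 of 9 in 16 genes. The lowest number was 3, in cyt1l, zgc:111983 and aep1. Leaving out each of the 15 libraries that the rule uses in turn, 8 genes passed the rule every time: s100s, OTOF, mmp30, CD109, si:dkey-103g5.3, zgc:162608, ENSDARG00000079103 and ENSDARG00000088373. The gene aep1 passed in 7 of the 15. All 3 libraries of a time were above all GFP+ mock libraries for cldni and CD109 at 1 h and soul5 at 3 h. The same held for PKHD1L1 at 3 and 5 h and adgrg2a at 5 h. All 3 were below at 1 h for ENSDARG00000079103 and si:ch211-103f14.3. At 3 h all 3 were below for si:dkey-103g5.3, zgc:162608, ENSDARG00000087524, ENSDARG00000091008 and si:ch73-105b23.6. At both 3 and 5 h this held for hcn5 and si:ch73-105b23.1. Such separations were not counted over all genes.

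**Figure D4:**
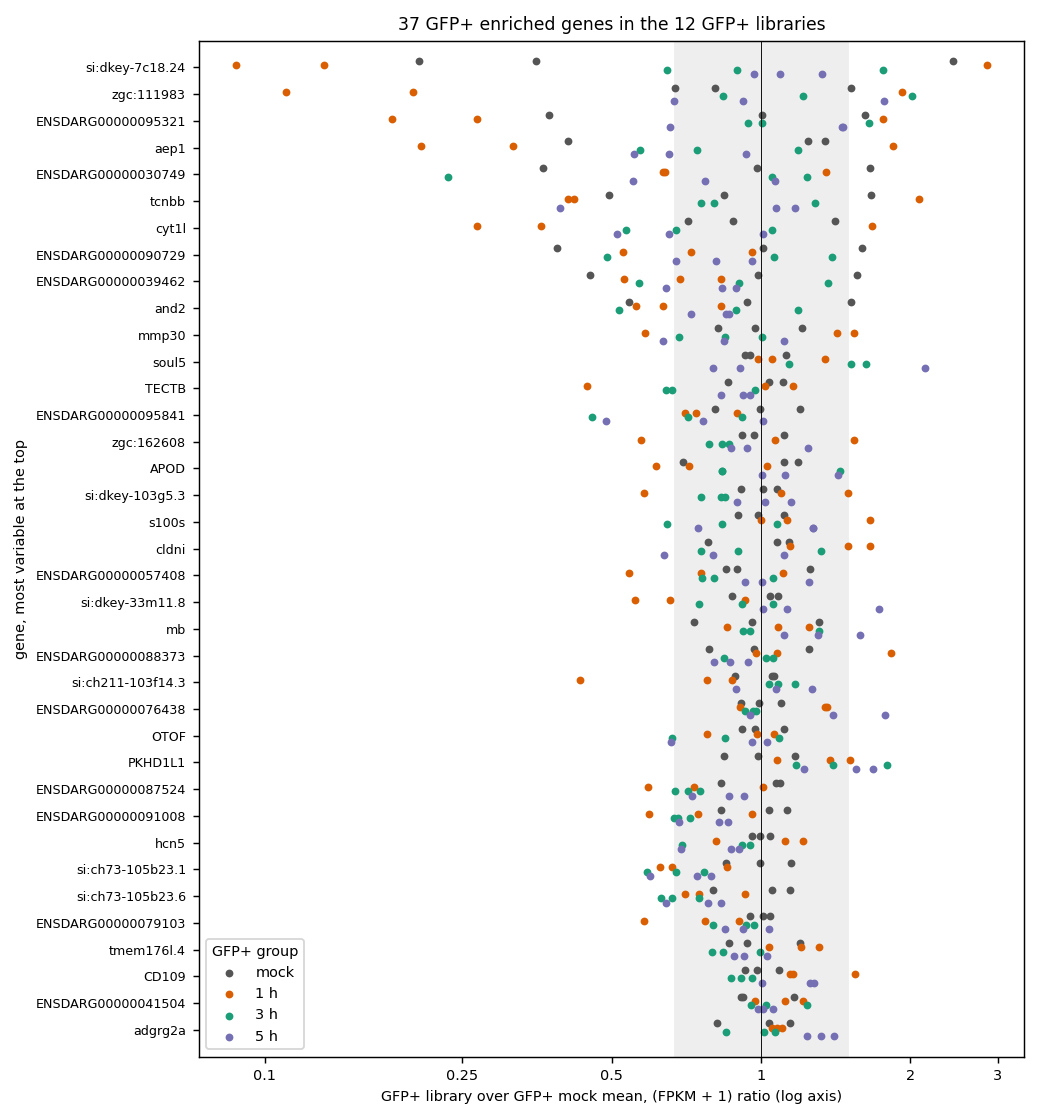
Each point is 1 GFP+ library divided by the GFP+ mock mean (FPKM plus 1, log axis), for the 37 genes ordered by their spread within groups; the shaded band is 0.67 to 1.5. The genes at the top, from si:dkey-7c18.24 to and2, have libraries outside the band after neomycin and, except cyt1l, also in mock. The genes at the bottom stay in or close to the band.

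The within-group standard deviation of log2(FPKM + 1) in GFP+ cells had a median of 0.35 over the 37 genes and ran from 0.16 (adgrg2a) to 1.71 (si:dkey-7c18.24). It was above 0.5 in 10 of 37 genes (27.0%), in 60 of the 106 enriched genes outside the window (56.6%) and in 415 of the 3861 genes with at least 20 FPKM (10.7%), whose median was 0.19. The 106 include the short RNA genes named above, such as mir301b and snord29, so they are not a like set for the 37 genes. The gene si:dkey-7c18.24 had 686, 98.1 and 56.5 FPKM in mock GFP+ cells, 801, 23.6 and 36.0 at 1 h, 250, 181 and 493 at 3 h and 373, 272 and 306 at 5 h. The gene zgc:111983 had 702, 310 and 374 FPKM in mock, 890, 50.1 and 90.9 at 1 h, 388, 562 and 931 at 3 h and 818, 426 and 309 at 5 h. In both, the first 1 h library was over 9 times each of its partners, and the mean of 3 described none of them.

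Replicate 1 was the highest library in mock and again at 1 h in 8 genes (21.6%): si:dkey-7c18.24, zgc:111983, ENSDARG00000095321, aep1, tcnbb, cyt1l, APOD and ENSDARG00000088373. It was the lowest in both groups in 15 genes (40.5%), among them and2, TECTB, PKHD1L1 and adgrg2a. Among the 3861 genes with at least 20 FPKM these shares were 18.5% and 25.6%. The epidermal markers were highest in the same 2 libraries and the lateral line markers lowest, with the deviations given above. Epidermal sums were 20113 to 38009 FPKM in mock GFP+ libraries, 18762 to 33872 by 1 h, 22943 to 27631 by 3 h, and from 23576 up to 31504 at 5 h, and lama3 was the only 1 of 48 IDs that averaged under 1 FPKM over the GFP+ libraries. Their part in the spread of these genes was not tested.

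In GFP- cells the levels of the 37 genes were low, and the libraries after neomycin were not used by the rule. Of the 37, 29 reached 1 FPKM in at least 3 of these 9 libraries, and the highest were ENSDARG00000090729, and2, ENSDARG00000039462 and cldni. The gene and2 had 72.0, 58.9 and 66.9 FPKM in GFP- mock cells, 46.0, 31.3 and 62.6 at 1 h, 62.5, 84.2 and 52.7 at 3 h and 73.5, 80.2 and 46.5 at 5 h. For cldni the values were 38.8, 25.8 and 19.2 FPKM in mock, 22.3, 31.9 and 52.1 at 1 h, 38.3, 26.0 and 18.02 at 3 h and 30.5, 24.1 and 27.5 at 5 h. In both genes the 4 groups overlapped.

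The 3 contrasts among the GFP- neomycin groups were tested with limma over all 21860 expressed genes, and no contrast called any of the 37 genes at an adjusted p under 0.05. The filter counted all 24 libraries, and the 37 genes met it through their GFP+ libraries. Only 29 of them reached 1 FPKM in at least 3 of the 9 GFP- neomycin libraries. The log2(FPKM + 1) scale understates differences of the others, so 0 of 37 is not a like comparison with the shares of all genes. At 5 h against 3 h, groups of 1 date, 0 genes were called in all (0.0%), and 0 of the 37 and 1326 of the 21860 had an unadjusted p under 0.05. At 3 h against 1 h, 1756 genes were called (8.03%, with 4.61% higher and 3.43% lower), 0 of them among the 37. Here 3 of the 37 and 5138 of the 21860 had an unadjusted p under 0.05. At 5 h against 1 h, 1957 genes were called (8.95%, with 4.36% higher and 4.59% lower), again 0 of the 37. An unadjusted p under 0.05 was found for 3 of the 37 and 5086 of the 21860. The median log2 difference of the 37 genes was -0.059 at 5 h against 3 h, 0.19 at 3 h against 1 h and 0.040 at 5 h against 1 h, beside -0.035, 0.022 and -0.0087 for all genes. The p-values measure the spread between the 3 numbered libraries of a group, pooled over all 8 groups. The scatter of the GFP+ libraries therefore enters the standard errors of these GFP- contrasts and bears on the 0 calls. A model of the contrast's 2 groups alone also called 0 of the 37. The labels do not say whether the numbered libraries come from separate clutches.

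Each of the 4 genes with an unadjusted p under 0.05 in either contrast (zgc:111983, PKHD1L1, si:ch211-103f14.3 and si:dkey-33m11.8) had a positive difference. Of these, PKHD1L1 and si:dkey-33m11.8 passed the filter only through GFP+ libraries, so their p-values are no independent support. Among the GFP- neomycin libraries, si:ch211-103f14.3 reached 1 FPKM only at 3 and 5 h, where it was higher. At 1 h it had 0.294, 0.571 and 0.635 FPKM, so its p-values carry the same limit. The gene zgc:111983 had 2.66, 4.76 and 6.43 FPKM in GFP- mock cells, 14.03, 2.71 and 2.60 at 1 h, 20.8, 24.4 and 26.9 at 3 h and 19.7, 10.8 and 14.4 at 5 h. Its log2 difference at 3 h against 1 h was 2.09 ± 0.76 (SE, n = 3 each; limma adjusted p = 0.0982). All 3 h libraries were above all mock and 1 h libraries, and without the first 1 h library the difference was 2.77 with an adjusted p of 0.0474. PKHD1L1 had 0.413, 0.386 and 0.411 FPKM in GFP- mock cells, 0.434, 0.658 and 0.366 at 1 h, 1.28, 0.858 and 0.794 at 3 h and 0.938, 1.06 and 0.718 at 5 h. Its log2 difference was 0.41 ± 0.17 at 3 h against 1 h (limma adjusted p = 0.142) and 0.36 ± 0.17 at 5 h against 1 h (limma adjusted p = 0.201). With 0.1 in place of 1 added before the logarithm, both differences passed the threshold, at 0.88 (limma adjusted p = 0.0226) and 0.80 (limma adjusted p = 0.0355). The clone-named si:ch211-103f14.3 gave 0.59 ± 0.20 at 3 h against 1 h (limma adjusted p = 0.0863) with GFP- means of 1.247 ± 0.228 at 3 h and 0.500 ± 0.181 FPKM at 1 h (SD, n = 3 each). With 0.1 added it also passed, at 1.20 (limma adjusted p = 0.0163), as it did at 5 h against 1 h (1.20, limma adjusted p = 0.0148), where si:dkey-33m11.8 passed as well (1.15, limma adjusted p = 0.0281).

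Both hair cell genes overlapped between the GFP- neomycin groups, while the 5 h libraries of s100s were all below its GFP- mock libraries. In GFP- cells s100s had 29.9, 32.4 and 17.2 FPKM in mock, 4.78, 13.2 and 18.2 at 1 h, 4.44, 19.2 and 6.05 at 3 h and 4.22, 16.8 and 8.20 at 5 h. The difference at 3 h against 1 h was -0.34 ± 0.49 (SE; limma adjusted p = 0.749). OTOF had 10.7, 5.97 and 4.63 FPKM in GFP- mock cells, 2.33, 3.92 and 8.50 at 1 h, 2.28, 8.36 and 6.28 at 3 h and 2.39, 7.12 and 2.93 at 5 h, with a difference of 0.17 ± 0.41 (SE; limma adjusted p = 0.860). In both genes replicate 1 was the lowest library at each time after neomycin. Of the 21 other hair cell IDs tested, 0 were higher and 1 lower at 3 h against 1 h, and 0 were called at 5 h against 1 h, where 2 had an unadjusted p under 0.05.

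**Figure D5:**
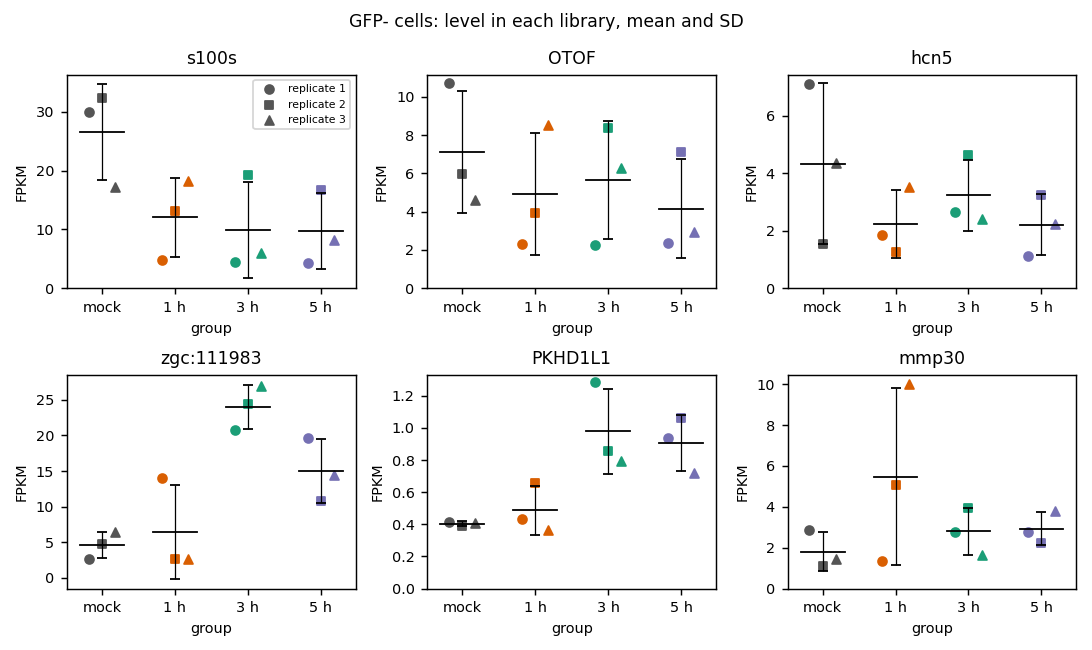
FPKM of 6 genes in the GFP- libraries of mock larvae and at 1, 3 and 5 h after neomycin; symbols mark replicates 1 to 3, horizontal lines the mean and whiskers the SD of 3 libraries. The 3 h libraries of zgc:111983 and PKHD1L1 lie above their mock and 1 h libraries, and in s100s the 5 h libraries lie below the mock libraries.

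Against GFP- mock cells, whose level the rule used, the comparison is a description. At 1 h, 0 of the 37 genes had all 3 libraries above the 3 mock libraries and 0 had all below, beside 9.82% and 13.5% of all expressed genes. At 3 h, 6 of the 37 were above (si:dkey-103g5.3, ENSDARG00000057408, zgc:111983, soul5, ENSDARG00000088373 and PKHD1L1) and 0 below, beside 13.7% and 12.6% of all genes. At 5 h, zgc:111983 and PKHD1L1 were above and s100s was below, beside 7.43% and 11.6%. None of the 37 had all 9 neomycin libraries below or all 9 above the mock libraries, as 1.79% and 1.37% of all genes had. The GFP- neomycin to mock ratios of means plus 1 had medians of 0.971, 1.096 and 1.07 at 1, 3 and 5 h, and the extremes at 3 h were 0.397 (s100s) and 4.46 (zgc:111983). The summed hair cell markers in GFP- cells, with s100s and OTOF among them, were 238 to 452 FPKM in mock, 183 to 282 by 1 h, 156 to 235 by 3 h, and from 163 up to 206 at 5 h. The part of the other hair cell markers in the s100s levels was not tested.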

How the data were processed

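RNA was sequenced from 24 libraries in 8 groups of 3. The authors deposited FPKM values, with a column for each library and a row for each Ensembl gene ID. CASAVA 1.8.2, TopHat 1.4.1, Cufflinks 1.3 and the build danRer7 are named in the submitters' processing notes. Annotation release, strand setting and filters were not given in the sources used here. The first row of each ID was used (31199 rows, 31087 IDs, 112 repeats, none of the 37 genes among them). Symbols came from a gene name table, which had one for 20499 IDs, often that of the mammalian ortholog. Total counts are unknown, so no counting error is given; relative depth was read from steps between values under 0.15 FPKM. Abundant transcripts can shift all other FPKM of a library, and levels can be compared between genes because they are per length.

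Groups follow the titles. The 37 genes and all lists were chosen with earlier results of these data known. Values of log2(FPKM + 1) of all libraries were fitted with limma 3.58.1 (R 4.3.3), with a mean for each group, for genes with at least 1 FPKM in at least 3 libraries, with an intensity trend; p-values are two-sided, adjusted by the Benjamini-Hochberg method over 21860 genes, with a threshold of 0.05. This scale understates differences of low genes. Only contrasts among GFP- neomycin groups were tested, since the rule used all other means. Marker deviations are means of log2(FPKM + 1) minus the group mean, with the 37 genes left out of the lists. Marker sums keep those of the 37 genes that are on a list. Genes with a symbol were named by a fixed rule on level, ratio, list and nearness to a threshold; hcn5 and the genes without a symbol were named after their values were seen. Alternatives changed the pseudocount, filter, scaling, model, thresholds of the rule and libraries.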

Additional observations from a re-analysis of the deposited data

How the results depend on the processing

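The number of genes the rule takes depended on its thresholds. A window from 0.8 up to its reciprocal gave 10 genes, one of 0.5 to 2 gave 72, a ratio of at least 8 gave 97 and a ratio of at least 32 gave 16. Chosen after seeing the data, leaving out the 4 GFP+ libraries numbered 1 gave 22 genes and leaving out the mock and 1 h libraries numbered 1 gave 23. Median-of-ratios scaling gave 41 genes, 30 of them among the 37, and a pseudocount of 0.1 gave 49, 35 of them shared. Each library left out in turn gave 26 to 40 genes.

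None of the 37 genes was called at 5 h against 3 h under any alternative, and leaving out each library gave 0 to 0 calls there and at 5 h against 1 h, and 0 to 1 at 3 h against 1 h (zgc:111983, without GFP- neomycin 1 h replicate 1). With a pseudocount of 0.1, 2 genes were called at 3 h against 1 h (si:ch211-103f14.3 and PKHD1L1) and 3 at 5 h against 1 h (the same pair and si:dkey-33m11.8), with the values given above. The smaller value added before the logarithm enlarges differences between levels near 1 FPKM. The other filters, scalings and models called 0 of the 37; the model of 2 groups alone called 7, 1284 and 1108 of all genes at 5 h against 3 h, 3 h against 1 h and 5 h against 1 h.

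The replicate block called 0 of the 37 genes in each contrast and 0, 2031 and 2186 of all genes. The deviations of same-numbered GFP- neomycin libraries had correlations of -0.039 to 0.12 over 9 pairs, 1 of them above 0.1, and a library correlated best with its own number in 10 of 18 comparisons. The numbers were not taken as pairs, because neither the labels nor all of the correlations pair them; the 10 of 18 are a hint from the data and not from the design. Depth is unknown in counts, so the precision of GFP- levels under 1 FPKM is unknown, and differences of these genes may have gone undetected.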
